A study of Rattus norvegicus with 29 samples.

Results

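A set of 500 open chromatin regions (OCRs) of the rat brain was examined that was most accessible in the subventricular zone (SVZ) relative to the nucleus accumbens (NAc). The members were chosen by their counts among the 98237 OCRs of the series, on the scale log2(CPM + 0.5), where CPM is the count of an OCR per 1000000 counts of the library in all OCRs. An OCR first had to have a mean over 4 SVZ libraries at least 1 log2 unit above the mean of 16 hippocampal libraries, which 10586 OCRs did. Of these, the 500 with the largest difference between the SVZ mean and the mean of 8 NAc libraries were kept. The 4 SVZ libraries of the rule were saline replicates 1 and 2 and METH replicates 1 and 2. SVZ saline replicate 3 was left out of the rule and is described beside them.

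Chromatin accessibility was measured by ATAC-seq on frozen tissue of adult male Sprague-Dawley rats with no genetic change named. Every 2 h each rat was given METH (methamphetamine, 10 mg/kg) or saline (1 mL/kg) by intraperitoneal injection, 4 injections in all, and the tissue was taken the day after the last of them. The NAc and, from the hippocampus, Ammon's horn (CA) and the dentate gyrus (DG) each had 4 saline and 4 METH libraries, and the SVZ had 3 saline and 2 METH libraries. The names inside the peak lists tied the 29 libraries to 8 animals, so libraries of different brain regions share animals and METH and saline libraries do not.

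In ATAC-seq a transposase inserts sequencing adapters where DNA is not covered by nucleosomes, so the number of fragments over a region reads its accessibility, which is high at active promoters and enhancers. The SVZ lines the lateral ventricles and is a neurogenic niche of the adult brain, holding neural stem cells, their dividing progeny, neuroblasts and, at the ventricle wall, ciliated ependymal cells. The NAc is the ventral part of the striatum and consists mainly of medium spiny projection neurons. In bulk tissue a larger share of a cell type and a higher accessibility per cell cannot be told apart. The tissue labels could not be set against marker genes, because a gene annotation of the rat build rn6, which the coordinates follow, was not used here.

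Total counts in OCRs ran from 7.55 M in SVZ saline replicate 3, the shallowest library, to 19.4 M in CA saline replicate 4, where M stands for 1000000 counts. The 5 SVZ libraries held 7.55 to 11.4 M. The median member had 19 to 50 counts in the NAc libraries and 24.5 to 111.5 counts in the SVZ libraries, which limits the precision at single members. Over all OCRs, SVZ saline replicate 3 had a Pearson correlation of 0.887 with the mean of the other SVZ libraries and of 0.932 with the NAc mean. For SVZ saline replicate 1 and both METH replicates the order was the other way, with 0.940 to 0.943 to the other SVZ libraries of the rule and 0.892 to 0.929 to the NAc mean, and for saline replicate 2 the values were 0.932 and 0.937. These correlations are across 98237 OCRs of the same libraries and describe them only. The NAc mean averages 8 libraries and the SVZ mean 4 or fewer, so the correlations with them are not on equal terms.

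The members had low accessibility in the NAc and the hippocampus and moderate accessibility in the SVZ. The values in the rest of this paragraph chose the members and are a description. The difference between the SVZ mean and the NAc mean ran from 1.36 to 2.61 log2 units with a median of 1.49. The last 5 members inside the threshold all had 1.36, and the 5 OCRs just outside it had 1.35 to 1.36. The mean SVZ level was 3.26 to 133.0 CPM, with a median of 8.0 CPM. The NAc and the hippocampus had nearly the same level at these OCRs, with a median difference between them of 0.0093 log2 units and a middle range from -0.16 to 0.19. The median member lay at percentile 18.2 of all OCRs by its NAc level and at percentile 71.3 by its SVZ level.

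The 5 SVZ libraries were far from equal at the members. The median member level, as log2(CPM + 0.5), was 3.61 in METH replicate 1, 3.17 in METH replicate 2, 3.08 in saline replicate 1, 2.34 in saline replicate 2 and 1.90 in saline replicate 3. Both METH libraries were above all saline libraries in this median, while the medians of all OCRs in the same 5 libraries stayed between 2.24 and 2.47. In the NAc the median member level was 1.46, 1.16, 1.16 and 1.36 in saline replicates 1 to 4, and 1.31, 1.59, 2.32 and 1.56 in METH replicates 1 to 4. METH replicate 3 of the NAc therefore lay 0.73 log2 units above the next NAc library and close to SVZ saline replicate 2. The DG libraries ran from 1.02 to 2.25 and the CA libraries from 1.13 to 1.82, and in each of these regions saline replicate 3 was the highest.

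**Figure D1:**
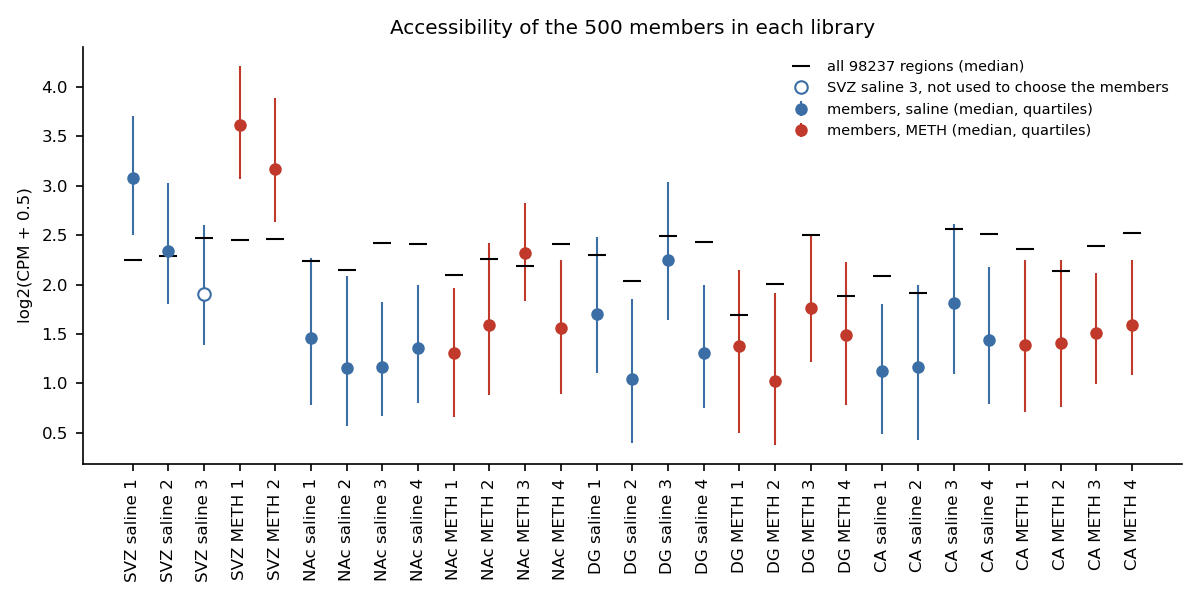
Accessibility of the 500 members in each of the 29 libraries, as log2(CPM + 0.5), with points at the median, bars from the lower to the upper quartile over members, and black dashes at the median of all 98237 OCRs. The SVZ libraries fall from 3.61 in METH replicate 1 to 1.90 in saline replicate 3 (open point), and NAc METH replicate 3 stands at 2.32 above the other NAc libraries.

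SVZ saline replicate 3, the library that the rule did not use, was only slightly above the NAc at the members. Its median difference from the NAc mean was 0.40 log2 units, with a middle range from 0.17 to 0.70, against 0.14 over all OCRs. The corresponding medians were 1.48 in saline replicate 1, 0.82 in saline replicate 2, 1.97 in METH replicate 1 and 1.74 in METH replicate 2, all of which entered the rule. Replicate 3 exceeded the NAc mean at 425 members, a share of 85.0% against 60.4% of all OCRs. It exceeded all 8 NAc libraries at 125 of the 500 members, and 20.6% of all OCRs did the same. A difference of more than 2-fold from the NAc mean was found at 52 members, or 10.4%, against 4.33% of all OCRs. Replicate 3 was above all 16 hippocampal libraries at 82 members, or 16.4%, and 17.0% of all OCRs did so.

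When the library sizes were set by the upper quartile, the median difference of replicate 3 from the NAc mean at the same 500 OCRs was 0.24, against -0.017 over all OCRs, and it exceeded all 8 NAc libraries at 75 members, against 12.5% of all OCRs. Among the 5 SVZ libraries it was the lowest at 368 members, against 24.6% of all OCRs, and the highest at 0, against 26.5%. Since the rule selected on the other 4 libraries, a lower rank of the library left out is favoured by the choice of members. METH replicate 1 was the highest at 324 members, against 23.8% of all OCRs, and METH replicate 2 at 128, against 17.1%.

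Each of the 5 animals with an SVZ library also gave an NAc library, which allowed the members to be read within an animal. The median difference between SVZ and NAc of the same animal was 1.38 log2 units for SVZ saline replicate 1, 1.15 for saline replicate 2, 0.55 for saline replicate 3, 1.48 for METH replicate 1 and 1.67 for METH replicate 2. The SVZ library was the higher of the pair at 498, 489, 422, 474 and 498 members in that order. Over all OCRs the SVZ library was the higher at 51.9%, 49.3%, 52.8%, 65.0% and 56.2%. All NAc libraries and 4 of the SVZ libraries entered the rule, so these values describe the members and carry no test. NAc METH replicate 3, the highest NAc library at the members, came from the same animal as SVZ METH replicate 1, the highest SVZ library. In that animal the DG and CA libraries had median member levels of 1.77 and 1.51, inside the range of the other animals.

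To test the difference between SVZ and NAc in animals that did not choose the OCRs, the same rule was applied to the METH libraries alone and its 500 OCRs were read in the saline libraries. This list shared 295 OCRs with the 500 members. In the saline libraries its median level was 2.85, 2.08 and 1.98 in SVZ replicates 1 to 3, and 1.60, 1.33, 1.30 and 1.41 in NAc replicates 1 to 4. All 3 SVZ libraries were thus above all 4 NAc libraries in this median, although in the medians of all OCRs the groups overlapped. The median log2 fold change of SVZ against NAc was 0.94, compared with 0.00061 over all OCRs, and it was above 0 at 492 of the 500, against 50.0% of all OCRs. An unadjusted edgeR p under 0.05 was reached by 243 in favour of SVZ and by 0 in favour of NAc, against 2.40% and 1.41% of all OCRs. All 3 SVZ values were above all 4 NAc values at 219 of the 500, against 5.78% of all OCRs. At the study's threshold for region-specific OCRs, a log2 fold change above 1 with an FDR under 0.01, edgeR called 0 of the 500 and 0.0% of all OCRs, and DESeq2 also called 0 of the 500, with 266 at an unadjusted p under 0.05, against 2.84% of all OCRs. The study removed factors of unwanted variation before its test, which was not done here, so these calls are not comparable with its own. SVZ saline replicate 1 carried a large part of the difference between SVZ and NAc. Without it the median was 0.54 and 45 of the 500 reached an unadjusted p under 0.05, against 0.931% of all OCRs. Without saline replicate 3 the median was 1.16 and the number 297, against 4.01%.

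The reverse reading gave a difference of similar size. The 500 OCRs chosen from the saline libraries, without SVZ saline replicate 3, shared 250 with the members and 103 with the METH-chosen list. In the METH libraries their median level was 3.11 and 2.77 in SVZ replicates 1 and 2, and 1.46, 1.54, 2.44 and 1.65 in NAc replicates 1 to 4, so the groups did not overlap in the median but NAc replicate 3 came close. The median log2 fold change was 1.10, compared with 0.046 over all OCRs, and 461 of the 500 were above 0, against 53.4% of all OCRs. An unadjusted edgeR p under 0.05 was reached by 253 in favour of SVZ and by 0 in favour of NAc, against 5.07% and 4.55% of all OCRs. Both SVZ METH libraries belong to 1 of 2 sets of library names, and NAc METH replicates 1 and 2 to the other. The fit had no term for the set, whose part here was not tested. Neither this fit nor that of the saline libraries had a term for the animals that SVZ and NAc libraries share. Both SVZ values were above all 4 NAc values at 304, against 21.7% of all OCRs. edgeR called 0 of the 500 at the same threshold and 0.0% of all OCRs, with a smallest FDR of 0.036, whereas DESeq2 called 12 in favour of SVZ, against 0.221% of all OCRs. Leaving out NAc METH replicate 3 raised the median to 1.48 and the number at an unadjusted p under 0.05 to 352, against 6.61% of all OCRs. Leaving out SVZ METH replicate 1 lowered that number to 131, against 2.52%, with a median of 0.94.

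Peaks were called by the authors in each library separately, and they show how often a member rose above its local background. They come from the same reads as the counts that chose the members. Except in SVZ saline replicate 3, which the rule did not use, the shares below therefore describe the choice and are no separate evidence. A peak overlapped 95.0% of the members in SVZ METH replicate 1, 79.4% in METH replicate 2, 78.6% in saline replicate 1, 59.6% in saline replicate 2 and 23.0% in saline replicate 3. Over all OCRs the same libraries had a peak at 44.7% to 54.3%, so saline replicate 3 had peaks at fewer of the members than of all OCRs and the other 4 at more. In the NAc, the saline libraries had a peak at 24.0%, 20.8%, 22.6% and 23.4% of the members and the METH libraries at 24.4%, 28.2%, 59.6% and 30.0%. Over all OCRs the NAc libraries had a peak at 53.1% to 72.9%, with 54.0% in METH replicate 3. NAc METH replicate 3 had a peak at as many members, 298, as SVZ saline replicate 2. The DG libraries ran from 22.6% to 44.6% and the CA libraries from 26.8% to 46.2%, in each case below the share over all OCRs of the same library. The fold enrichment of the peaks at members had a median of 5.47 in SVZ METH replicate 1 and between 4.20 and 5.07 in all other libraries, against 5.33 to 8.11 at all OCRs.

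**Figure D2:**
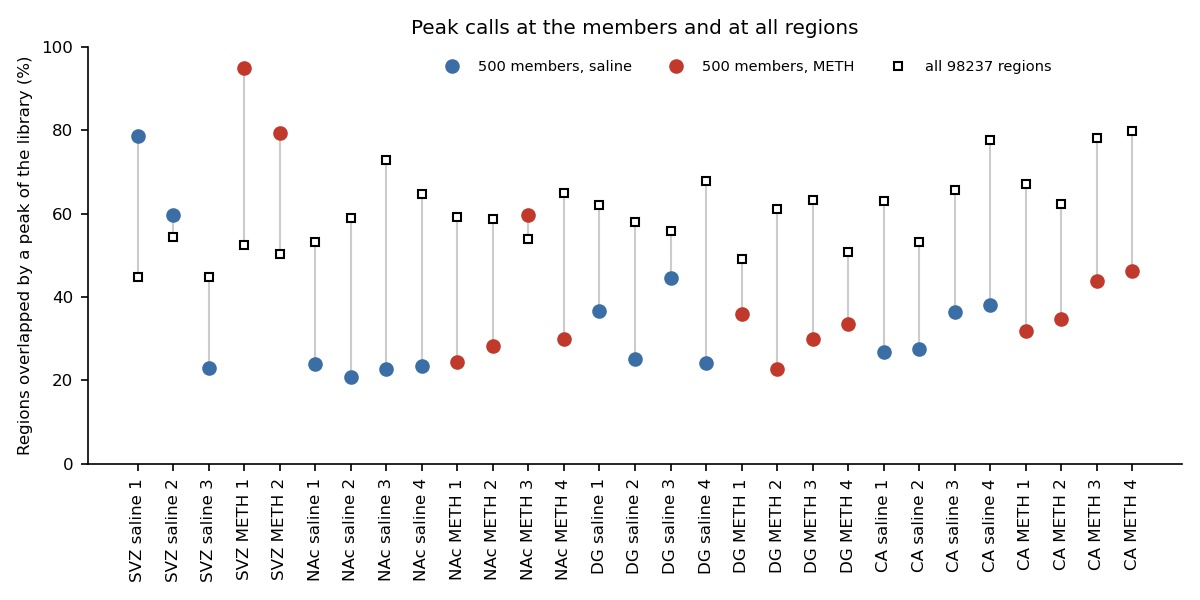
Percentage of OCRs overlapped by a peak of each library, for the 500 members (filled points) and for all 98237 OCRs (open squares), with a grey line joining the values of a library. The members exceed all OCRs in the 4 SVZ libraries of the rule and in NAc METH replicate 3. SVZ saline replicate 3, at 23.0%, sits among the NAc libraries.

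The rule chose members for SVZ counts above those of the NAc, DG and CA, and the peaks come largely from the same reads. The peak patterns in this paragraph therefore describe the choice, and their differences from all OCRs are no separate evidence. The median member had a peak in 7 of 29 libraries, against 17 over all OCRs. Peaks in at least 1 SVZ library and in no NAc, DG or CA library were found at 37 members, a share of 7.40%, against 0.174% of all OCRs. At 118 members no NAc library had a peak, a share of 23.6% against 15.1% of all OCRs, while at 58 members, or 11.6% against 32.7%, all 8 NAc libraries did. As a description, the set held both OCRs that were called almost nowhere outside the SVZ and OCRs that were open in every brain region. The higher level of the latter in the SVZ follows from the rule. A peak was found in all 29 libraries at 49 members, a share of 9.80% against 21.2% of all OCRs.

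The leading members showed the widest differences and low counts outside the SVZ. The first by rank (chromosome 14, 92679589 to 92680490, rn6) had 27.6, 5.26 and 7.42 CPM in SVZ saline replicates 1 to 3 and 71.0 and 31.7 CPM in METH replicates 1 and 2. Its NAc values ran from 1.70 to 15.7 CPM with a median of 2.88, and the highest of them was METH replicate 3. Saline replicates 2 and 3 of the SVZ thus lay inside the NAc range, and the other 3 SVZ libraries above it. A peak covered this OCR in 4 SVZ and 2 NAc libraries and in 0 hippocampal libraries.

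The second by rank (chromosome 6, 113566181 to 113567004) had 4.96, 7.63 and 2.12 CPM in SVZ saline replicates 1 to 3 and 10.8 and 8.26 CPM in METH replicates 1 and 2, against 0.27 to 3.86 CPM in the NAc. The third (chromosome 9, 9117580 to 9118189) had 8.17, 1.93 and 3.71 CPM with saline and 26.0 and 9.93 CPM with METH, against 0.27 to 3.66 CPM in the NAc. The fourth (chromosome 3, 33561941 to 33562454) had 8.06, 2.81 and 1.19 CPM with saline and 11.8 and 5.91 CPM with METH, against 0.07 to 5.39 CPM in the NAc. At all 3 of these OCRs at least 1 SVZ saline library lay inside the NAc range. In SVZ saline replicate 3 they rested on 16, 28 and 9 counts.

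The fifth (chromosome 9, 106037444 to 106038283) had 18.3, 2.72 and 4.37 CPM in SVZ saline replicates 1 to 3 and 35.5 and 9.37 CPM in the METH replicates, against 0.91 to 4.85 CPM in the NAc. The sixth (chromosome 2, 129398305 to 129399421) had 9.82, 3.07 and 3.97 CPM with saline and 20.9 and 8.70 CPM with METH, against 0.59 to 2.69 CPM in the NAc. At the sixth all 5 SVZ libraries, replicate 3 included, were above all 8 NAc libraries. The eighth (chromosome 6, 134062616 to 134063273) had the highest value of SVZ saline replicate 3 relative to the NAc among all members, 1.98 log2 units, with 5.99, 0.79 and 3.71 CPM with saline and 12.2 and 5.24 CPM with METH against 0.09 to 1.08 CPM in the NAc. Here saline replicate 2, a library of the rule, was the SVZ library inside the NAc range.

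Of the 12 leading OCRs, the OCRs ranked 7 (chromosome 15, 105977748 to 105978227), 9 (chromosome 17, 41657561 to 41658414), 10 (chromosome 2, 225688841 to 225689467), 11 (chromosome 19, 1426260 to 1426898) and 12 (chromosome 4, 51753091 to 51753802) had differences of 2.09 to 2.22 log2 units between the SVZ and NAc means. The highest NAc value at each of these 5 was 2.78 to 5.66 CPM and came from METH replicate 3, and the median NAc value was 0.73 to 1.42 CPM. In SVZ saline replicate 3 they had 1.32 to 3.44 CPM. Its difference from the NAc mean ranged from 0.027 log2 units at rank 11 to 1.05 at rank 10.

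**Figure D3:**
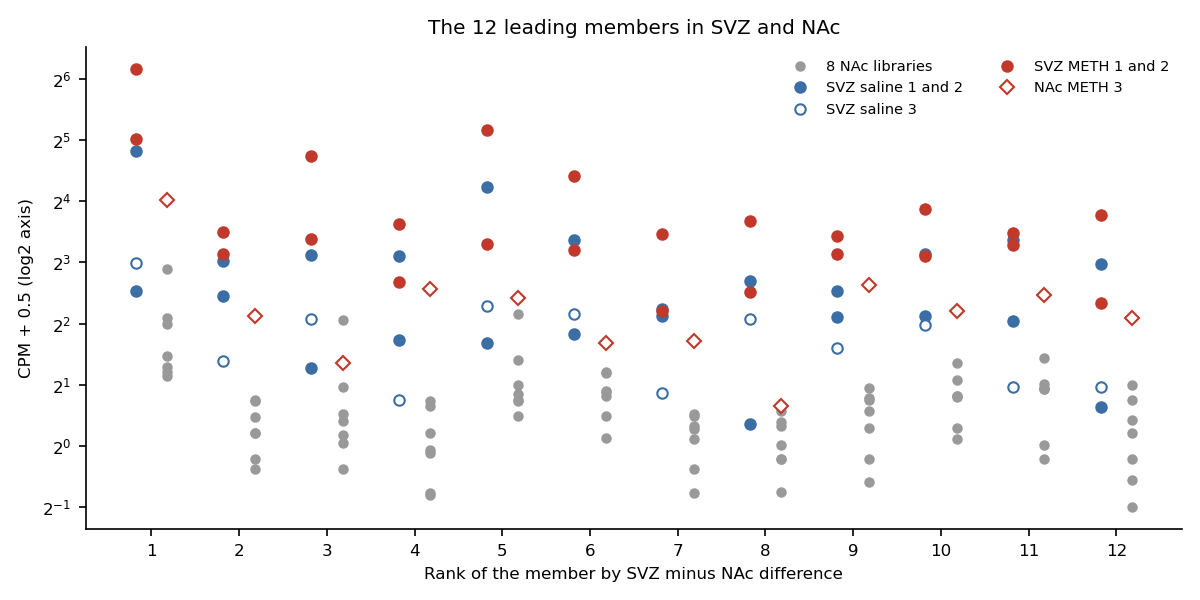
CPM + 0.5 on a log2 axis at the 12 members with the largest difference between SVZ and NAc, with SVZ libraries on the left and NAc libraries on the right of each rank. NAc METH replicate 3 (open diamond) is the highest NAc library at 11 of the 12, and SVZ saline replicate 3 (open circle) is inside or below the NAc range at 9.

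Members with the highest accessibility in the SVZ were of another kind, with smaller relative differences on a high background. The most accessible (chromosome 1, 55649830 to 55651711) had 122.2, 77.0 and 64.0 CPM in SVZ saline replicates 1 to 3 and 160.9 and 171.8 CPM in METH replicates 1 and 2. The NAc ran from 33.8 to 60.1 CPM, the DG from 36.6 to 101.1 CPM and the CA from 32.5 to 77.1 CPM. All 5 SVZ libraries were above all 8 NAc libraries, replicate 3 by a small margin, whereas the highest DG library, saline replicate 3, exceeded 2 of the SVZ saline libraries. The next 4 by SVZ level were at chromosome 1, 55735840 to 55737235, chromosome 1, 56035575 to 56038238, chromosome X, 36469394 to 36470399, and chromosome 1, 56023487 to 56025686. Their SVZ values were 48.7 to 155.0 CPM and their NAc values 25.1 to 58.4 CPM. All 5 had a peak in all 29 libraries.

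These OCRs lay in dense groups of members along the chromosomes, a property that the rule did not use. Of the 500 members, 203 had another member within 100 kb, in 55 groups, and 297 were isolated. No such number was worked out for 500 OCRs taken from the whole series. The densest group spanned 134.7 kb of chromosome 1 (55638164 to 55772841) and held 26 members among 46 OCRs. Its median member had 28.9, 17.8 and 15.6 CPM in SVZ saline replicates 1 to 3 and 40.0 and 43.1 CPM in the METH replicates, against 7.86 to 14.0 CPM in the NAc libraries and 7.83 to 23.5 CPM in the hippocampal libraries. All 5 SVZ libraries were above the NAc range in this median.

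The second group, on chromosome 16 (21723455 to 21863413), held 11 members among 33 OCRs. Its median member had 8.68, 5.52 and 5.30 CPM with saline and 12.9 and 13.7 CPM with METH in the SVZ, against 1.96 to 4.65 CPM in the NAc. The third, on chromosome X (18211215 to 18231139), held 9 members among 11 OCRs within 19.9 kb. Its median member had 19.2, 13.6 and 9.93 CPM with saline and 29.5 and 28.6 CPM with METH in the SVZ, against 5.22 to 10.7 CPM in the NAc, so SVZ saline replicate 3 fell inside the NAc range here. The order of the SVZ saline libraries was the same in all 3 groups. OCRs of a group lie in the same stretch of chromatin and are not independent. The treatment of reads that match several places is unknown from the sources used here.

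Chromosome 1 carried 115 members, or 23.0%, although it holds 10.6% of all OCRs, and 76 of the 115 were in groups. Chromosome 16 carried 33 members, 6.60% against 3.28% of all OCRs, and chromosome X carried 22, 4.40% against 1.28%. Among the isolated members the shares of these chromosomes were 13.1%, 3.37% and 1.35%, near those of all OCRs for the latter pair. Chromosome 10 carried 10 members, 2.00% against 6.03%, and chromosome 5 carried 14, 2.80% against 6.64%. The 500 OCRs that follow in the ranking were grouped even more, with 306 within 100 kb of another and 23.6% on chromosome 1, so this distribution was not limited to the members. The median width of the members was 693.5 bp, against 662 bp over all OCRs. The widest member, of 2664 bp, was the third most accessible OCR named above, and the narrowest, of 171 bp (chromosome X, 18216616 to 18216786), was in the third group.

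Isolated and grouped members differed in several measures besides position. The median of the NAc mean was 1.91 CPM at isolated members and 3.87 CPM at grouped members. Isolated members had a peak in a median of 6 libraries and grouped members in 14, and a peak in all 29 libraries was found at 1.68% and 21.7% of them, the latter close to the 21.2% of all OCRs. In the NAc saline libraries a peak overlapped 6.06% to 10.8% of the isolated and 40.4% to 48.8% of the grouped members. The same libraries had a peak at 53.1% to 72.9% of all OCRs, SVZ saline replicate 3 at 44.7% and NAc METH replicate 3 at 54.0%. SVZ saline replicate 3 had a peak at 10.1% of the isolated and 41.9% of the grouped members, inside the range of the NAc saline libraries for both. NAc METH replicate 3 had a peak at 63.3% of the isolated members, against 13.8% to 17.2% in the other NAc METH libraries, but at 54.2% of the grouped members, against 38.9% to 49.3%. Its median level at isolated members was 2.21, with the other 7 NAc libraries between 0.83 and 1.14, and at grouped members it was 2.49, with the others between 1.79 and 2.53. In level, this library thus stood above the other NAc libraries at isolated members and within their range at grouped ones. DG saline replicate 3 was the highest DG library at 183 of the 203 grouped and at 140 of the 297 isolated members, against 20.1% of all OCRs.

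**Figure D4:**
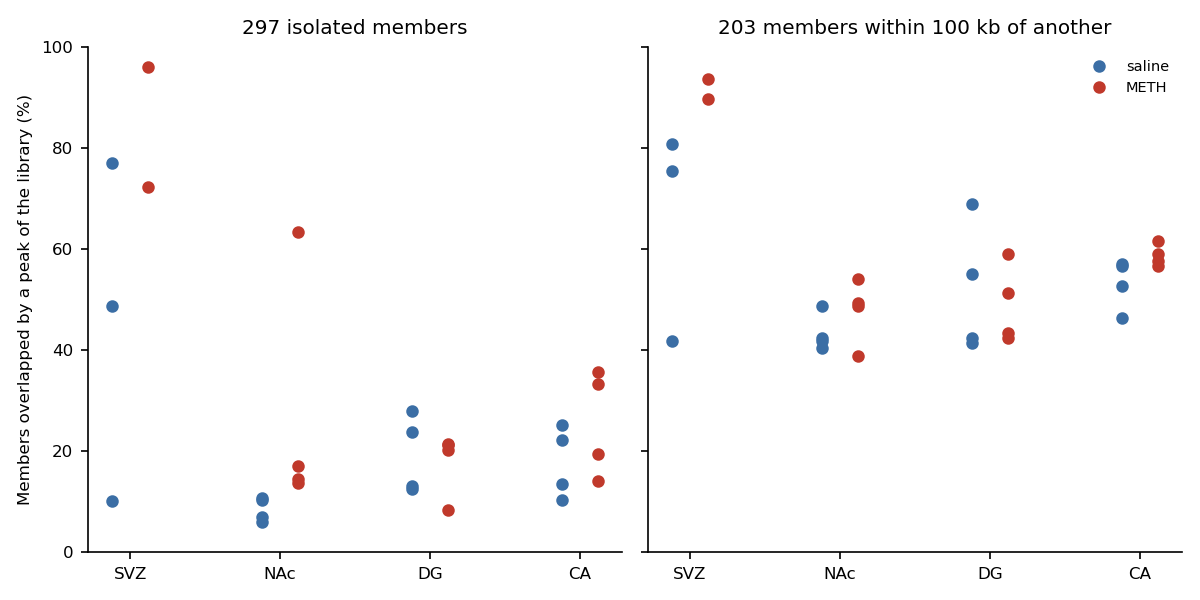
Percentage of isolated members (left) and of members within 100 kb of another (right) overlapped by a peak of each library, with 1 point per library by brain region and treatment. NAc METH replicate 3, at 63.3%, stands apart from the other NAc libraries among the isolated members.

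METH was compared with saline within each brain region to learn whether the members responded to the drug. In the SVZ no member passed the study's threshold, a fold change above 1.5 with an FDR under 0.001. The study first removed factors of unwanted variation from its counts, and at this threshold it reported differentially accessible OCRs in every brain region. That removal was not run here, so the calls below are not comparable with its own. The rule used both METH libraries and saline replicates 1 and 2, but not saline replicate 3, so the choice of members favours METH over saline in the full comparison. The counts below describe the members, and the shares over all OCRs, which were not selected in this way, are no measure of a response. edgeR called 0 of the 500 members and 0.0% of all OCRs. DESeq2 also called 0 members, and it called 8 of the 98237 OCRs, all lower with METH. The median log2 fold change was 0.83 at the members and -0.0050 over all OCRs. It was above 0 at 493 members, against 49.5% of all OCRs, and beyond 1.5-fold upwards at 410, against 11.0%. An unadjusted edgeR p under 0.05 was reached by 114 members with higher and 0 with lower accessibility, against 1.27% and 2.20% of all OCRs, and by 123 and 0 in DESeq2, against 1.46% and 3.15%. Both METH libraries were above all 3 saline libraries at 280 members, against 14.5% of all OCRs, and below all 3 at 1 member, against 7.58%. They were above saline replicates 1 and 2 at 280 members too, against 24.6% of all OCRs.

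Without saline replicate 3, when METH and saline each had 2 libraries and all 4 had entered the rule, the median log2 fold change was 0.58, 475 members were above 0, against 50.2% of all OCRs, and 14 members reached an unadjusted p under 0.05 upwards, against 0.477%. Without METH replicate 1 the median was 0.68 with 22 members at that p, against 0.555% of all OCRs. Without saline replicate 2 it was 0.79 with 51, against 1.00%, and without METH replicate 2 it was 0.94 with 82, against 0.888%. The METH libraries and saline replicates 2 and 3 share 1 of 2 sets of library names, and within that set, without saline replicate 1, the median was 1.25 with 274 members at that p, against 4.35% of all OCRs. METH replicate 2 carries an additional tag of unknown meaning in its library name, and the part of this in the result was not tested. The 3 saline libraries had median member levels spread over 1.90 to 3.08, a wider range than the gap of 0.086 between saline replicate 1 and METH replicate 2.

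**Figure D5:**
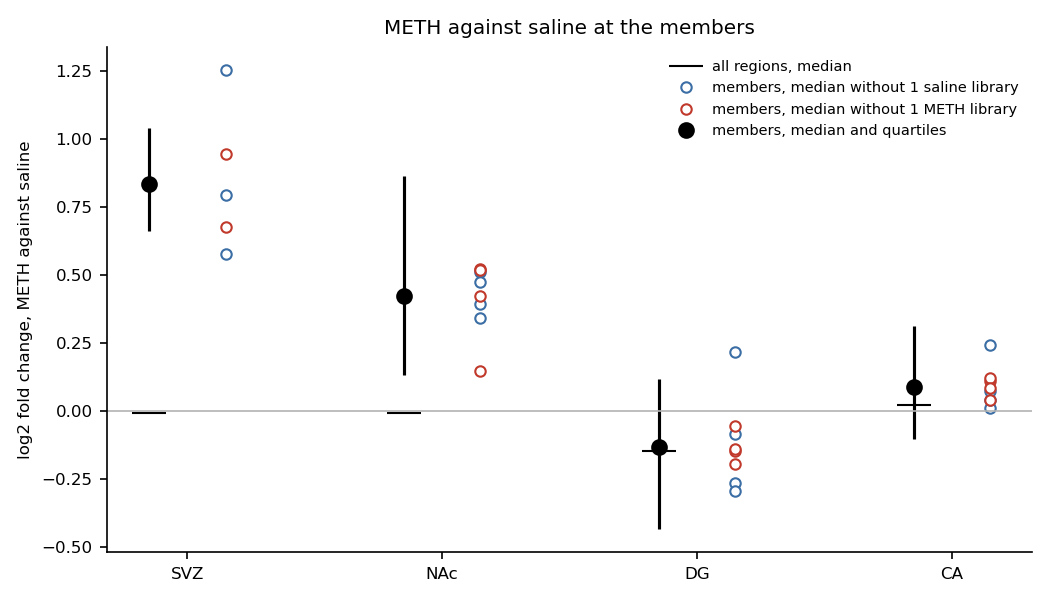
log2 fold change of METH against saline at the members in each brain region, as the median with quartiles over the 500 members (black), the median of all OCRs (dash) and the median at the members with 1 library left out (open points). The SVZ medians run from 0.58 to 1.25, the NAc median falls to 0.15 without METH replicate 3, and the DG median changes sign without saline replicate 3.

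The members with the smallest unadjusted p upwards in the SVZ included an OCR near the start of chromosome 12 (63075 to 64071). It had 16.7, 6.66 and 11.4 CPM with saline and 49.5 and 24.2 CPM with METH, with no overlap of the groups. METH exceeded saline there by 1.58 ± 0.45 log2 units (SE), with an unadjusted edgeR p of 0.0015 and an edgeR adjusted p of 1.00. An OCR of the third group (chromosome X, 18224104 to 18225647) had 27.5, 17.6 and 13.6 CPM with saline and 46.8 and 42.6 CPM with METH, a log2 fold change of 1.09. An OCR on chromosome 14 (71645945 to 71646770) had 7.75, 2.54 and 2.91 CPM with saline and 14.3 and 15.7 CPM with METH, a log2 fold change of 1.67. An OCR on chromosome 7 (706470 to 706906) had 4.75, 5.87 and 2.91 CPM with saline and 11.9 and 10.9 CPM with METH, a log2 fold change of 1.24. The groups did not overlap at any of these 4 OCRs, and the edgeR adjusted p was 1.00 for each. These 4 were picked by their p among members that the rule had chosen with both METH libraries and saline replicates 1 and 2. Their fold changes, unadjusted p and lack of overlap therefore describe selected values and are no test of a response. Both METH libraries were above all 3 saline libraries at 280 members.

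In the downward direction no member came near a call. The 4 with the smallest unadjusted p lay at chromosome 2, 113116554 to 113117329, chromosome 20, 30630281 to 30630886, chromosome 1, 34841612 to 34842167, and chromosome 2, 43790404 to 43791001. Their log2 fold changes were -0.43, -0.41, -0.29 and -0.23, with standard errors of 0.79, 1.08, 0.93 and 0.83. The first of them had 7.03, 4.82 and 5.30 CPM with saline and 4.43 and 4.57 CPM with METH.

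In the NAc the members also had a positive median, which was smaller without METH replicate 3. All 8 NAc libraries entered the rule, which kept OCRs of low NAc mean whatever the treatment, so these counts too describe selected values set beside OCRs that were not selected. edgeR called 0 members and 0.0% of all OCRs, as did DESeq2, and 76 members reached an unadjusted p under 0.05 upwards and 0 downwards, against 1.03% and 1.42% of all OCRs, with 92 and 0 in DESeq2, against 1.54% and 1.62%. The median log2 fold change was 0.42, compared with -0.0050 over all OCRs, and 428 members were above 0, against 49.3%. Without METH replicate 3 the median was 0.15, 321 members were above 0, against 45.2% of all OCRs, and 24 reached an unadjusted p under 0.05 upwards, against 0.778%. The median was 0.66 at isolated and 0.19 at grouped members. METH replicates 1 and 2 against saline replicates 1 and 2, the set of library names without replicate 3, gave a median difference of -0.017 log2 units, and replicates 3 and 4 gave 0.55. METH replicate 3 was the highest of the 8 NAc libraries at 274 members, of which 215 were isolated, against 22.2% of all OCRs. The 4 members named above for a nominally lower SVZ value with METH had their highest NAc value in this library. At 2 of them it was above every SVZ library, with 9.52 CPM on chromosome 20 (30630281 to 30630886) and 7.09 CPM on chromosome 1 (34841612 to 34842167).

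In the hippocampus the members had medians close to those of all OCRs when all libraries were in the edgeR fit. All DG and CA libraries entered the rule through the criterion against the hippocampus, so these values too describe the members. In the DG edgeR called 0 members and 0.0% of all OCRs, as did DESeq2 for the members, with 5 higher and 8 lower at an unadjusted p under 0.05, against 3.57% and 6.28% of all OCRs, and 11 and 5 in DESeq2, against 11.7% and 4.39%. The median log2 fold change in the DG was -0.13 and that of all OCRs -0.15, and 185 members were above 0, against 39.9% of all OCRs. With DESeq2 these medians were 0.049 and -0.0059. Without DG saline replicate 3 they were 0.22 and -0.069. In the CA edgeR called 0 members and 0.0% of all OCRs, with 7 higher and 0 lower at an unadjusted p under 0.05, against 0.353% and 0.467% of all OCRs, and the same counts in DESeq2, against 0.289% and 1.24%. The median there was 0.090, against 0.023 over all OCRs, and 310 members were above 0, against 53.4%. CA saline replicate 3 was the highest CA library at 189 members, against 19.8% of all OCRs.

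Whether the METH effect differed between the SVZ and the NAc was examined with an interaction term of the edgeR model. All of these libraries but SVZ saline replicate 3 entered the rule, so the values describe the members. edgeR called 0 members and 0.0% of all OCRs, with 16 members at an unadjusted p under 0.05 with a larger effect in the SVZ and 0 with a smaller one, against 0.841% and 1.64% of all OCRs. No DESeq2 fit of the interaction was made. The median of the difference was 0.43 log2 units, compared with 0.021 over all OCRs, and 361 members were above 0, against 51.7%. The median was 0.18 without SVZ saline replicate 3 or without SVZ METH replicate 1, and 0.92 without SVZ saline replicate 1. A difference between the responses of single members in the SVZ and the NAc was not detectable with these libraries.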

How the data were processed

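The authors processed each ATAC-seq library with the AIAP pipeline and merged the peaks of all groups into 1 set of OCRs on rn6. Neither the pipeline's version nor the read counter is known from the sources used here. Raw counts per OCR make up the deposited table. The authors' peak lists give each peak a fold enrichment over background (a ratio), with p and q as −log10. All sample columns were used.

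The members and lists were chosen with earlier results of these data known. METH was compared with saline by edgeR 4.0.16 (R 4.3.3, upper-quartile library sizes, quasi-likelihood F test with Benjamini-Hochberg FDR) in 1 model of 8 groups and 29 libraries over 98237 OCRs. The edgeR code was checked on simulated counts with known changes in SVZ METH. Apart from these changes the simulated libraries shared the same mean profile and a fixed spread. The check therefore does not show how the tests behave with the spread of the real libraries. SVZ was compared with NAc in the 15 saline or 14 METH libraries alone. Factors of unwanted variation, which the authors removed before their tests, were not estimated here. DESeq2 1.42.0, TMM, a replicate block, the library set, the top-decile share of counts and leaving out each library were alternatives. The main fit had no filter on low counts. A filter at a mean CPM of 1 or more kept 98236 OCRs, so it could hardly change the result. Peaks were intersected with bedtools 2.31.1 at 1 bp. The replicates are libraries of separate animals. Members within 100 kb of another were called grouped, a split made after the data were seen. OCRs were named by rank (12 leading, 5 most accessible, 4 of smallest p in each direction, 3 densest groups, widest and narrowest). Gene annotation, marker and pathway lists, sequences and motifs were not analysed here.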

Additional observations from a re-analysis of the deposited data

Results flagged for a closer look

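In groups of 4 libraries, a value was set apart when its gap to the nearest of the others took more than 0.829 of the group's range. Over 174 such groups of values 9 stood apart, against 8.7 at a rate of about 1 in 20. The groups repeat the same libraries and are not independent, so 8.7 is a rough figure. As the number that stood apart was close to it, the values below are a description only.

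NAc METH replicate 3 had a peak at 298 members, with 122 to 150 in the other 3 NAc METH libraries. Over all OCRs its share was 54.0%, and theirs were 58.6% to 64.9%. NAc METH replicate 3 also accounted for 5 of the 8 single OCRs. At the second member by rank it had 3.86 CPM (others 0.89 to 1.19), at the ninth 5.66 CPM (others 0.98 to 1.44) and at rank 10 4.13 CPM (others 1.25 to 1.61). At the member on chromosome 20 (30630281 to 30630886) it had 9.52 CPM (others 0.27 to 0.72), and at that on chromosome 1 (34841612 to 34842167) it had 7.09 CPM (others 0.27 to 0.85). This library came from the animal of SVZ METH replicate 1. The DG and CA libraries of that animal had a peak at 149 and 219 members, against 63.3% and 78.2% of all OCRs. The values without NAc METH replicate 3 give its part in the METH difference in the NAc. The cause was not tested.

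DG METH replicate 3, of the same animal, had 1.94 CPM at the fourth member by rank (others 0.21 to 0.36). CA saline replicate 3 had 6.78 CPM at the member on chromosome 2 (113116554 to 113117329), with 1.03 to 1.75 CPM in the others. CA saline replicate 4 had 1.13 CPM at the member on chromosome 14 (71645945 to 71646770), with 1.99 to 2.12 CPM in the others.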

How the results depend on the processing

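The choice of members depended on the scale: 305 of the 500 were chosen again with a pseudocount of 2, 412 with 0.1, 489 with upper-quartile sizes, 295 from METH libraries alone, 250 from saline libraries alone, and 377 to 459 when 1 library was left out. SVZ saline replicate 3 exceeded all NAc libraries at 75 OCRs of the list chosen with upper-quartile sizes, against 12.5% of all OCRs on that scale. It did so at 69 OCRs of the list chosen from saline libraries, against 20.6% of all OCRs. In the list chosen with this library in the SVZ mean the number was 201, against the same 20.6%, and that choice favours it. Counting a peak only where it covered at least 50% of a member left 195 members with a peak in SVZ saline replicate 2 and 55 in replicate 3. Over all OCRs the shares were 34.0% and 24.1%. DESeq2 called 12 saline-chosen OCRs in the METH libraries where edgeR called 0.

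With 1 library left out, the median log2 fold change of METH ran from 0.58 to 1.25 in the SVZ, 0.15 to 0.52 in the NAc, -0.29 to 0.22 in the DG and 0.013 to 0.24 in the CA, and the interaction from 0.18 to 0.92. In the DG it was 0.049 with DESeq2. For SVZ against NAc it ran from 0.54 to 1.16 in saline and from 0.94 to 1.48 in METH libraries. The cause of these shifts was not tested.

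METH and saline libraries of equal replicate number came from different animals, so the numbers do not pair them. Their deviations correlated with r between -0.27 and 0.73. In the NAc, DG and CA, libraries of equal replicate number share a set of library names, and the part of this in r was not tested. With a replicate block the medians were 0.87 in the SVZ, 0.39 in the NAc, -0.11 in the DG, 0.10 in the CA and 0.51 for the interaction, and with the animal as a block SVZ exceeded NAc by 0.86 in saline and 1.07 in METH libraries. Each block fit called 0 members. A comparison of sequence windows was not run, since an rn6 genome was not used here. With 2 METH libraries in the SVZ and a median of 24.5 counts per member in the shallowest, differences at single members were detectable only if large. Few OCRs reached an unadjusted edgeR p under 0.05 also where each group had 4 libraries. Over all OCRs the shares higher and lower with METH were 1.03% and 1.42% in the NAc and 0.353% and 0.467% in the CA. In the DG they were 3.57% and 6.28%. The reason for these low shares was not tested.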
